A study of Mus musculus with 4 samples.

Results

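The Hox genes of the 4 mouse clusters were read in RNA from cultured mammary tumour cells. Members were all genes whose symbol is Hoxa, Hoxb, Hoxc or Hoxd followed by a number, and 39 of the 23361 genes in the table met this rule: 11 in HoxA, 10 in HoxB, 9 in HoxC and 9 in HoxD. The cells came from mammary tumour line 23116 of the Chaos3 mouse, a model with a mutant allele of the replication gene Mcm4, on the C3HeB/FeJ background. All 4 libraries share that origin. The Low group is the control line with low Arid1a, run in duplicate, and is written here as Low 1 and Low 2. The High group holds an add-back clone per library, AB-C1 and AB-C2, each transduced with a lentiviral vector for over-expression of Arid1a, which codes for a subunit of the chromatin remodeller BAF (SWI/SNF). High 1 and High 2 only name those libraries, and the table does not tie either to a clone. Each library was made from 500 ng of total RNA, and none of the sources used here gives the mouse's age, the vector's promoter or whether the Low cells received an empty vector.

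Hox genes encode transcription factors that bind DNA through a homeodomain and set position along the head-to-tail axis of the embryo. Within a cluster they lie in the order of their paralog number, and low-numbered genes act nearer the head than high-numbered ones. Their transcription is kept on by Trithorax and MLL proteins and off by Polycomb proteins, is induced by retinoic acid, and is often carried over from the embryo into adult tissues and cultured cells. In the mammary gland several Hox genes are active in epithelium or stroma, and their proteins bind DNA together with Pbx, Meis and Pknox partners.

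Total depth ranged from 13889856 to 28110812 fragments per library, and the Hox genes took 24.4 to 60.4 CPM when counted on plain totals (CPM is fragments per 1000000). Arid1a itself had 82.2 and 94.2 CPM, from here on after TMM scaling of library size, in Low 1 and Low 2. It had 49.8 and 58.3 CPM in High 1 and High 2, a log2 fold change of -0.71 ± 0.23 (SE; edgeR adjusted p = 0.165). Set against the Low pair one library at a time, it was -0.82 ± 0.30 in High 1, called lower, and -0.60 ± 0.30 in High 2, not called. Transcript counts therefore ran against the High label, so "the libraries labelled High" is meant wherever High is written below. Luminal and basal epithelial markers summed to 862.2 to 2189 CPM and 1407 to 2875 CPM per library. Not every member was present: the luminal marker Elf5 was at 0 in High 2 and the basal marker Krt5 at 0 in High 1. Fibroblast and mesenchyme markers summed to 7838 and 6932 CPM in Low 1 and Low 2, against 1971 in High 1 and 760.2 in High 2, with Lum at 0 throughout. Endothelial and adipocyte markers summed to no more than 0.732 CPM, and leukocyte markers to 8.89, 8.96, 20.9 and 27.8 CPM in Low 1, Low 2, High 1 and High 2. Nearly all of that leukocyte sum was Csf1r, called higher in High 1 and in High 2 against Low, and Cd3e and Emr1 were among the leukocyte markers at 0. The labels do not state whether the Low duplicates were grown separately, so the spread within the Low pair may be technical. The spread within the High pair includes any difference between its clones. Every p-value reflects only the spread within these groups of 4 libraries in all. In the fit with 3 groups described below, it reflects that of the Low pair alone.

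Hox RNA was low, and it lay mostly in paralog groups 1 to 9. Of the 39 genes, 12 had no fragment in any library, 7 had 1 to 9 fragments over all 4 libraries, and 6 had 14 to 43 but did not pass edgeR's filter on low counts. The remaining 14 genes passed it and were tested, 7 of them in HoxA, 2 in HoxB, 4 in HoxC and 1 in HoxD. This filter needs counts in at least a group's worth of libraries, so the 14 are not a sample of all Hox genes. A gene present only in the Low pair could pass it, and a gene present in 1 High library alone could not. Counts and medians over the 14 therefore do not describe all Hox genes. A library with 0 fragments allows up to 3, which is 0.11 to 0.22 CPM depending on its depth. Of the 23 genes in paralog groups 1 to 8, 12 were tested. Only 2 of the 16 genes in groups 9 to 13, the posterior or AbdB-related genes, were tested, and 9 of those 16 had no fragment. Hoxa9, Hoxb9 and Hoxd9 had no more than 5 fragments in any library, while their paralog Hoxc9 had 13 to 132. HoxD had the fewest active members: 6 of its 9 genes were at 0 everywhere, and Hoxd8 was the only 1 tested.

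Levels per length are comparable between genes as FPKM, the authors' fragments per kilobase of transcript scaled to depth. Hoxa5, a gene of lung and axial skeleton patterning, had the highest mean Hox level over the 4 libraries at 5.39 FPKM, above 33.3% of all tested genes. The median tested gene had 11.1 FPKM. Further down came Hoxa4 with 3.64 FPKM, Hoxa7 with 2.63 and Hoxc9 with 2.29. Next came Hoxd8 at 1.57, Hoxc5 at 1.34, Hoxb4 at 1.29, Hoxc4 at 1.28 and Hoxa3 at 1.27. Hoxa2 (0.831), Hoxa10 (0.387), Hoxc6 (0.32) and Hoxb3 (0.155 FPKM) were the lowest of the tested genes. Between neighbours among the genes named here, the ranges over the 4 libraries overlapped throughout.

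**Figure D1:**
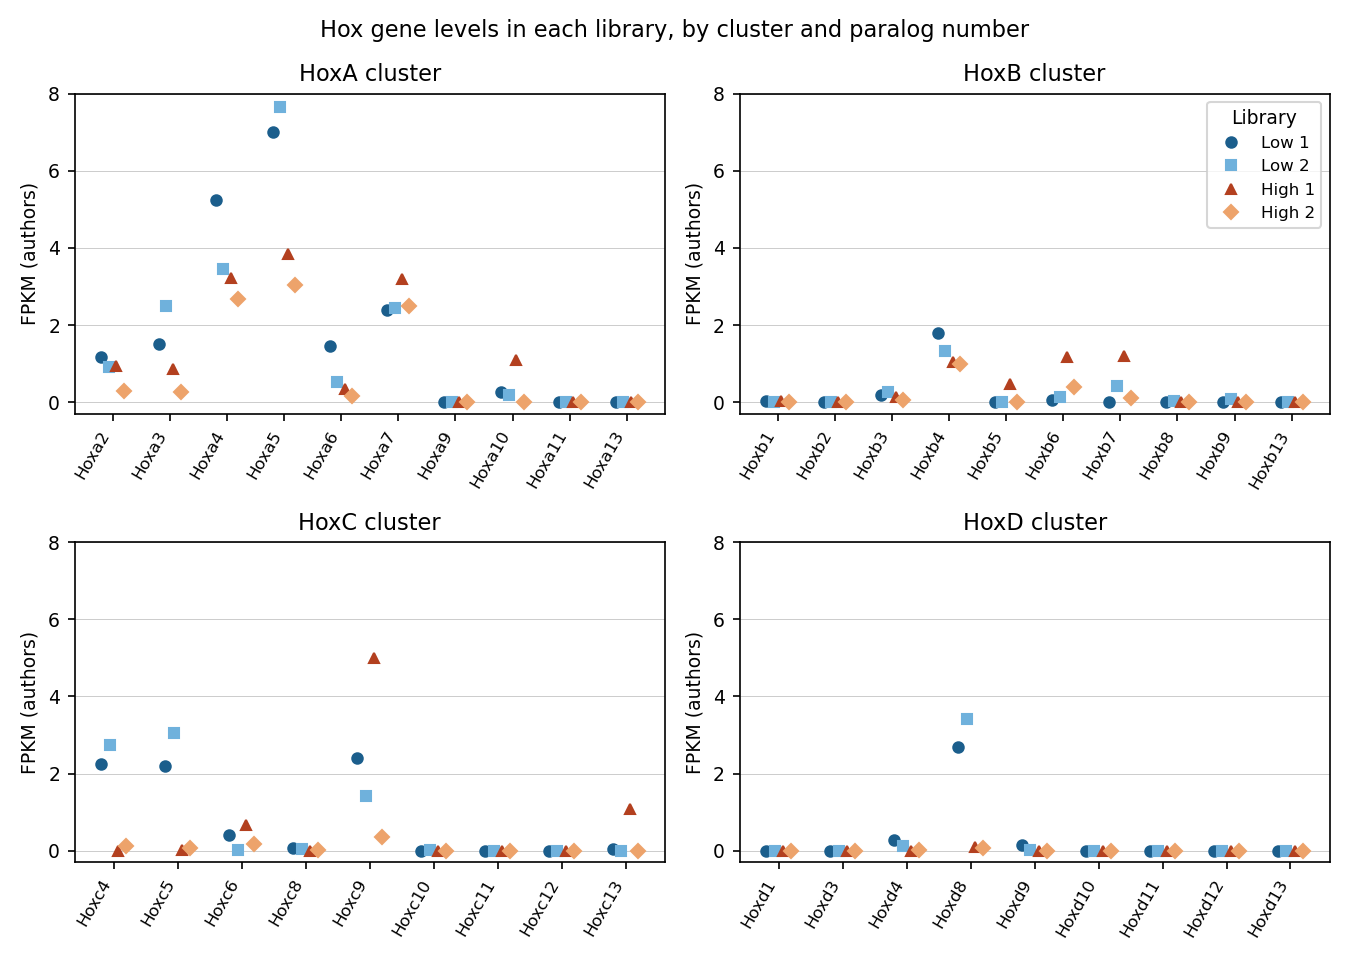
Level of Hox genes in FPKM (linear axis, the authors' values), by cluster and in order of paralog number, with 1 marker per library. Hoxa4, Hoxa5 and Hoxa7 carry signal in all libraries, whereas Hoxc4, Hoxc5 and Hoxd8 are at 2.19 FPKM or more in Low and at 0.113 or less in High.

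Summed over its 9 genes, HoxD had 4.26 and 4.54 CPM in Low 1 and Low 2, against 0.117 in High 1 and 0.122 in High 2. Most of the Low signal was Hoxd8. The HoxC sum was 14.1 and 15.04 CPM in Low 1 and Low 2, 11.2 in High 1 and 1.18 in High 2. The High libraries therefore differed from each other in HoxC more than High 1 did from Low. HoxA summed to 35.04 and 37.7 CPM in Low 1 and Low 2, 30.7 in High 1 and 19.7 in High 2, so it carried 60% to 81.5% of all Hox fragments. HoxB, with 4.995, 4.79, 6.43 and 3.18 CPM in the same order, overlapped between the groups. These sums are descriptions and were not tested.

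**Figure D2:**
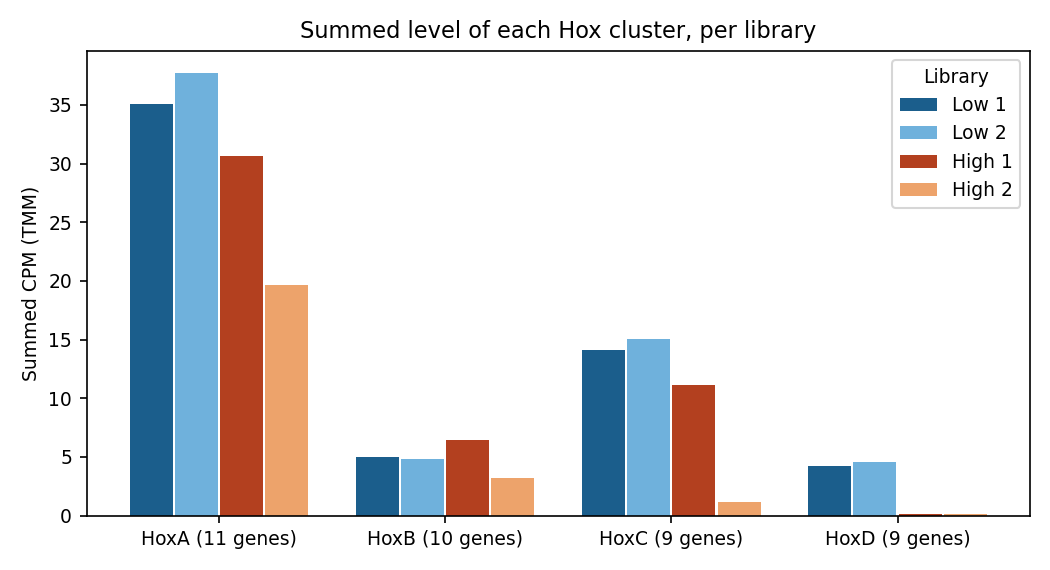
Summed CPM of each Hox cluster (bars from 0, 1 bar per library, no error bars because each bar is a single library). HoxD is at 4.26 and 4.54 CPM in Low and at 0.117 and 0.122 in High, while HoxC drops to 1.18 in High 2 only.

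Within HoxC, the genes were also summed in parts by position. Hoxc4 and Hoxc5 together had 9.62 and 12.7 CPM in Low 1 and Low 2, 0.0584 in High 1 and 0.366 in High 2. The other HoxC genes, Hoxc6 to Hoxc13, summed to 4.48 and 2.34 CPM in Low, 11.1 in High 1 and 0.814 in High 2. So Hoxc4 and Hoxc5, at the anterior end, were low in both High libraries. The sum of the rest was above Low in High 1 and below it in High 2, and few genes carried it. In High 1 it came from Hoxc9 (132 fragments), Hoxc13 (42, not tested) and Hoxc6 (16). Hoxc8, Hoxc10, Hoxc11 and Hoxc12 had no fragment there. In Low most of it was Hoxc9, with 50 and 59 fragments in Low 1 and Low 2. Over all clusters, paralog groups 9 to 13 summed to 4.63 and 2.93 CPM in Low, 12.3 in High 1 and 0.529 in High 2. Paralog groups 4 to 8 gave 42.4 and 43.2 CPM in Low 1 and Low 2, 23.8 in High 1 and 17.0 in High 2, without overlap of the groups.

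Between the High and Low groups, 3 Hox genes fell and none rose at an adjusted p of 0.05 (edgeR quasi-likelihood test over 12987 genes): Hoxc4, Hoxc5 and Hoxd8. They are 3 of 14 tested, beside 1.33% of all tested genes called lower and 1.14% called higher. All 3 passed the filter on low counts through the Low libraries alone, so their share is not a test of Hox genes as a set. At an unadjusted p under 0.05 (edgeR) there were 5 of 14, beside 2348 of 12987 over all tested genes. The others were Hoxa3 and Hoxa5, both with negative fold changes. The median log2 fold change was -0.67 over the 14 Hox genes and 0.03 over all tested genes. In 14 alternative fits, which include leaving out each library, log2 fold changes kept their sign for these 5 genes. They ran from -9.45 to -1.72 for Hoxc4, -6.71 to -1.79 for Hoxc5 and -5.44 to -1.90 for Hoxd8. For Hoxa3 they ran from -2.95 to -0.95 and for Hoxa5 from -1.26 to -0.91. For Hoxc9 they changed sign, from -2.42 to 1.43. Fibroblast and mesenchyme marker sums moved in the same direction (given above), with 2 of 8 tested members, Fap and Vim, called lower. Their log2 fold changes were below 0 for 6 of the 8 and above 0 for 2. Set against Low singly, 6 were below 0 and 2 above in High 1, and 7 below and 1 above in High 2. Col1a1 had 2521 and 2133 CPM in Low 1 and Low 2, 63.5 in High 1 and 16.08 in High 2. Col3a1 had 1970, 1834, 169.2 and 2.035 CPM in that order, and Postn 354.7, 415.6, 123.5 and 4.437. The list was not uniform: Dcn had 4.19 and 5.45 CPM in Low 1 and Low 2, 195 in High 1 and 19.6 in High 2, and was called higher in each High library against Low. Pdgfra had 79.3 and 97.3 CPM in Low, 234.4 in High 1, where it was called higher, and 26.6 in High 2, where it was called lower. The part of these markers in the Hox differences was not tested. Of the 8 luminal markers none was called, and of the 8 basal ones Acta2 was called lower. In each list, log2 fold changes were above 0 for 6 markers and below 0 for 2. Cdh1 had 130.4 and 145.9 CPM in Low 1 and Low 2, 262.9 in High 1 and 386.4 in High 2. Trp63 had 2.13, 1.28, 5.9 and 22.5 CPM in that order, and Itgb4 59.6, 56.0, 105.3 and 193.5. Elf5 (1.47, 1.57, 10.9 and 0) and Krt8 (647, 443, 224.1 and 878.9) differed from Low in opposite directions in High 1 and High 2. In bulk RNA, fewer cells of a type and less RNA per cell cannot be told apart.

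Hoxc5, at mm10 chr15:102967443-103017429 on the plus strand, is active around the neck-to-thorax level of the embryo. It had 76 and 213 fragments in Low 1 and Low 2, 1 in High 1 and 4 in High 2, or 5.58, 7.79, 0.0584 and 0.163 CPM. Both High libraries lay far below both Low ones. The log2 fold change was -5.77 ± 0.75 (SE; edgeR adjusted p = 0.0116), and the pooled fragment ratio was 58.8 (exact 95% interval 24.9 to 183, counting error only). In the GENCODE annotation of this build 166 exon bases of Hoxc5 are shared with Hoxc10 on the same strand. Hoxc10 had 1 fragment in all.

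Hoxd8, at chr2:74704615-74707933 on the plus strand, had 45 and 115 fragments in Low 1 and Low 2 and 2 in each High library. In CPM these were 3.31, 4.21, 0.117 and 0.0814, so the High libraries were alike and the groups apart. Its log2 fold change was -5.19 ± 0.80 (edgeR adjusted p = 0.022), with a pooled fragment ratio of 40.7 (exact 95% interval 15.6 to 151). No exon of another annotated gene overlaps it. Its HoxD neighbours on either side were near the floor: Hoxd9 had 4, 1, 0 and 0 fragments and Hoxd4 had 9, 8, 0 and 1 in Low 1, Low 2, High 1 and High 2, and neither was tested.

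Hoxc4, at chr15:103018934-103036852 on the plus strand, is the most anterior HoxC gene. It had 55 and 134 fragments in Low 1 and Low 2, 0 in High 1 and 5 in High 2, or 4.04, 4.90, 0 and 0.204 CPM. The 2 groups did not overlap. The log2 fold change of -5.24 ± 1.03 passed the threshold narrowly (edgeR adjusted p = 0.0489), and the pooled fragment ratio was 38.5 (exact 95% interval 16.2 to 120). With upper-quartile scaling the adjusted p was 0.0539 by edgeR, and with limma-voom 0.0635. Of the 3 genes, limma-voom called Hoxc5 alone and limma on log2(FPKM + 0.1) Hoxd8 alone. Leaving out Low 1 or Low 2 ended all 3 Hox calls, and with either left out edgeR called none of the genes tested, with 970 and 800 at an unadjusted p under 0.05.

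Homeoboxes are alike between Hox genes, so the sequences that a fragment would have to tell apart are shown. The printed runs are the 180 bases that code for the homeodomain (5′ to 3′, GENCODE transcripts), for Hoxc4 and Hoxd8, which fell, for Hoxa5, which did not pass the test, and for Hoxc9, which differed between the High libraries. Capitals mark the 18 bases that code for the most conserved stretch of the DNA-recognition helix.
Hoxc4: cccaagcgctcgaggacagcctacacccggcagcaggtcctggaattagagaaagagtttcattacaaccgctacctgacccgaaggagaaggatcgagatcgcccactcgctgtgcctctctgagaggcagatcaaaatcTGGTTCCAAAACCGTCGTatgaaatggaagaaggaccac
Hoxa5: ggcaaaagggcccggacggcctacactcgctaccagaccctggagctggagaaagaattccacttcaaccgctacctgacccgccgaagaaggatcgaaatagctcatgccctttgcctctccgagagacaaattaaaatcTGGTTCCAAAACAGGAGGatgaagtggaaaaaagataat
Hoxd8: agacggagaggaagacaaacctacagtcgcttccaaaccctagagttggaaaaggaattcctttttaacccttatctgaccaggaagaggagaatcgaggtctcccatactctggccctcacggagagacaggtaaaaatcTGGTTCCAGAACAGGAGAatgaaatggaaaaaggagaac
Hoxc9: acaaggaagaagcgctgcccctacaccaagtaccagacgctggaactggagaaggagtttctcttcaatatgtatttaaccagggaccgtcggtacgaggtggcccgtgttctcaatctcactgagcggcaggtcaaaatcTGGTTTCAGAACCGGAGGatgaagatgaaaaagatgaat

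Hoxc4 and Hoxa5 had 74.4% of their homeobox bases in common, Hoxa5 and Hoxd8 69.4%, and Hoxc4 and Hoxd8 66.1%. Even in the capitals the codons differ between members. The longest run of identical bases that a transcript of Hoxc4 shared with any other Hox gene was 20, and that of Hoxd8 was 32. For Hoxc5 it was 168, with Hoxc10. Only 4 of 741 Hox pairs had 50 or more identical bases in a row.

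The tested paralogs of Hoxc4 and Hoxc5 were not called between the groups, and the other genes in the group of Hoxd8, Hoxb8 and Hoxc8, had 3 and 6 fragments in all. Hoxb4, studied for its part in blood stem cell growth, had 4.26 and 3.15 CPM in Low 1 and Low 2, 2.51 in High 1 and 2.40 in High 2. Hoxa4, the HoxA gene of the same paralog group, had 6.98 and 4.61 CPM in Low and 4.32 and 3.58 in High. For both, the High libraries lay below the Low ones, by log2 fold changes of -0.59 ± 0.54 and -0.55 ± 0.48, and neither passed the test (edgeR adjusted p = 0.613 and 0.598). Hoxa5 had 11.8 and 12.9 CPM in Low 1 and Low 2, against 6.54 in High 1 and 5.17 in High 2. Its High values were also the lower ones, with a log2 fold change of -1.08 ± 0.37 that missed the threshold (edgeR adjusted p = 0.185). The difference between these changes and those of Hoxc4 and Hoxc5 was not tested.

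Among the other HoxA genes, Hoxa3, a gene of pharyngeal arch and thymus development, had 3.53 and 5.85 CPM in Low 1 and Low 2, 2.04 in High 1 and 0.611 in High 2. The groups did not overlap, and the log2 fold change of -1.84 ± 0.73 did not pass (edgeR adjusted p = 0.244). Hoxa7 was the 1 tested Hox gene with both High values above both Low ones: 4.19 and 4.32 CPM in Low 1 and Low 2, 5.67 in High 1 and 4.40 in High 2. Its log2 fold change was 0.24 ± 0.47 (edgeR adjusted p = 0.835). Hoxa2, a gene of the branchial arches, overlapped between the groups, with 1.76 and 1.35 CPM in Low 1 and Low 2, 1.40 in High 1 and 0.448 in High 2. Of the 14 tested genes, 8 had both High libraries below both Low ones and 1 had both above, beside 25.1% and 25.9% of all tested genes. Exons of Hoxa3, Hoxa4, Hoxa7 and Hoxb3 overlap antisense genes. The library kit kept strand, but none of the sources used here says whether the counting used it, so reads of the 2 strands may not have been separated.

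Because the High libraries are different clones, each was also set against the Low pair in a fit with 3 groups. That fit has 1 residual degree of freedom, from the Low pair, and takes each lone High library to vary as the Low duplicates do. Both comparisons use the same Low libraries. In High 1, Hoxc4, Hoxc5 and Hoxd8 were called lower and Hoxc9 higher, beside 8.19% of all tested genes called lower and 10.7% higher. In High 2, 7 of the 14 were called lower (Hoxa3, Hoxa5, Hoxa10, Hoxc4, Hoxc5, Hoxc9 and Hoxd8) and none higher, beside 8.15% lower and 9.16% higher of all tested genes. At an unadjusted p under 0.05 there were 7 Hox genes in High 1 and 8 in High 2. The median log2 fold change of the 14 was -0.48 in High 1 and -1.93 in High 2, with all tested genes at -0.01 and 0.00.

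Hoxc5 had a log2 fold change of -6.71 ± 0.96 in High 1 and -5.32 ± 0.77 in High 2. For Hoxd8 these values were -4.95 ± 1.02 and -5.44 ± 1.01. Hoxc4 had no fragment in High 1, so it was at least 26.3-fold lower there (floor of 3 fragments in that library), and the log2 fold change in High 2 was -4.42 ± 0.85. These 6 calls had edgeR adjusted p-values of 2.31e-05 or smaller. Hoxa5 had close values in both, -0.92 ± 0.40 in High 1 and -1.26 ± 0.40 in High 2, and only the second was called (edgeR adjusted p = 0.0938 and 0.014), a call that DESeq2 did not make (adjusted p = 0.088). Hoxa3 had -1.21 ± 0.57 and -2.95 ± 0.65, with edgeR adjusted p = 0.132 and 9.3e-05. The High libraries did not differ from each other in Hoxa5 or Hoxa3 beyond the threshold (edgeR adjusted p = 0.764 and 0.117).

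**Figure D3:**
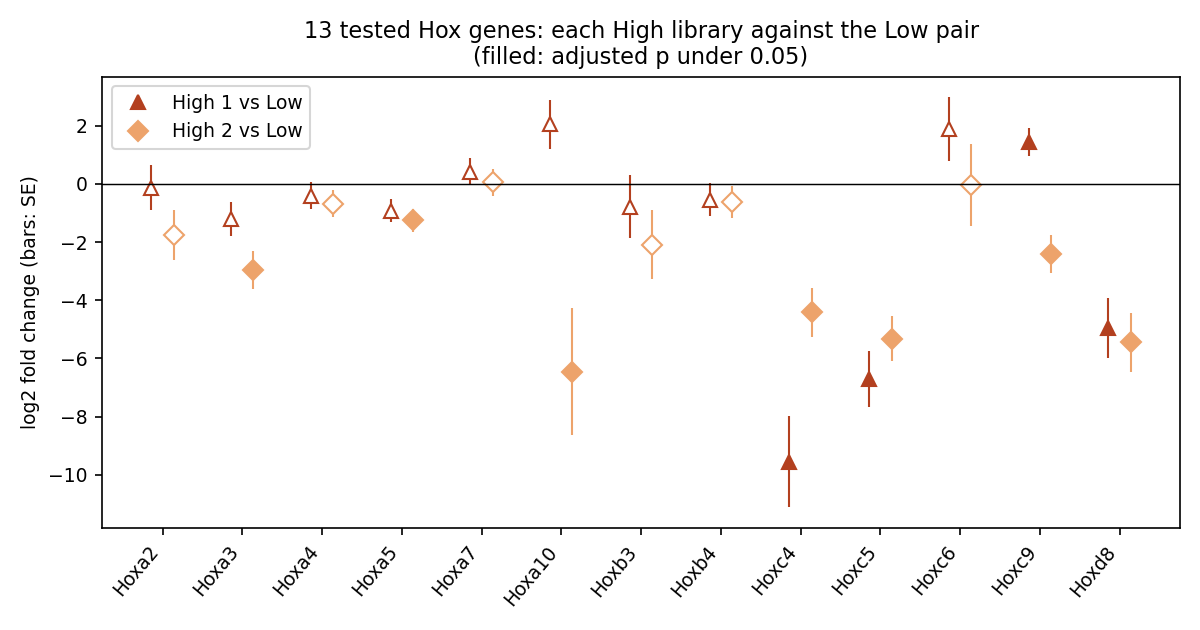
Log2 fold change of each High library against the Low pair for tested Hox genes, with bars of 1 SE from the 3-group edgeR fit and filled markers where the adjusted p was under 0.05. Hoxc4, Hoxc5 and Hoxd8 are filled and low in both libraries, and Hoxc9 is filled on opposite sides of 0; fitted values of Hoxc4 in High 1 and Hoxa10 in High 2 rest on 0 fragments and are not bounds.

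Hoxc9 and Hoxa10, both posterior genes, separated the High libraries. Hoxc9, known for silencing limb-level motor neuron fates in the thoracic cord, had 50 and 59 fragments in Low 1 and Low 2, 132 in High 1 and 13 in High 2. In CPM that was 3.67, 2.16, 7.71 and 0.529, so High 1 was above and High 2 below both Low libraries. Its log2 fold change was 1.43 ± 0.49 in High 1 (edgeR adjusted p = 0.0234) and -2.42 ± 0.65 in High 2 (edgeR adjusted p = 0.00203). Set directly against each other, High 2 was below High 1, with a log2 difference of -3.85 ± 0.69 (edgeR adjusted p = 1.34e-06) and a fragment ratio of 14.6 (exact 95% interval 8.23 to 28.1). DESeq2 did not call the rise in High 1 (adjusted p = 0.266).

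Hoxa10, a gene of uterus and lumbar vertebra patterning, had 8 and 13 fragments in Low 1 and Low 2, 37 in High 1 and 0 in High 2. Its levels were 0.588, 0.476 and 2.16 CPM in the first 3, and High 2 held at least 17.7-fold less than High 1 (edgeR adjusted p = 0.000345; floor of 3 fragments). Against Low it was at least 4.2-fold lower in High 2 (edgeR adjusted p = 0.023), while the value in High 1, 2.04 ± 0.84, was not called (edgeR adjusted p = 0.0706), though limma-voom called it (2.01, adjusted p = 0.0189). DESeq2 did not call it in High 2 against Low (adjusted p = 0.102). Between the High libraries, Hoxa10 and Hoxc9 were the 2 of 14 called lower in High 2 and none was higher, beside 6.47% lower and 4.46% higher of all tested genes. Among the 14, 3 had an unadjusted p under 0.05. Of the 8 tested fibroblast and mesenchyme markers, 6 were also called lower in High 2 than in High 1, and their part in the difference of Hoxc9 and Hoxa10 was not tested.

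Several thinly covered genes also had their fragments in High 1, and these are named after their values were seen. Hoxc13, a hair follicle and nail gene, had 42 of its 43 fragments in High 1. Hoxb5 had all of its 14 there, and Hoxb6 had 1, 4, 23 and 11 and Hoxb7 0, 12, 22 and 3 in Low 1, Low 2, High 1 and High 2. None passed the filter. Hoxc6, which did, had 8, 1, 16 and 6 fragments in that order and was called by edgeR in none of the comparisons above. In High 1 against Low, limma-voom called it higher (log2 fold change 2.65, adjusted p = 0.0138; edgeR 1.88, adjusted p = 0.243).

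Upstream sequence was read for the genes with an entry among RefSeq promoters (GRCm38.p6), 22 of 39 genes with 24 windows, of which 250 bases before each start were used. The windows of Hoxd8 and Hoxc4, which fell, are printed with those of Hoxa5 and Hoxa7, the 2 genes with the most fragments among those not called between the groups that have an entry. Hoxc5 has none. Capitals mark CpG dinucleotides, and runs go 5′ to 3′ on the coding strand. They lie at chr2:74704365-74704614 (Hoxd8, plus), chr15:103034145-103034394 (Hoxc4, plus), chr6:52204588-52204837 (Hoxa5, minus) and chr6:52218574-52218823 (Hoxa7, minus). The Hoxc4 and Hoxa7 windows lie inside the longer genes of the GENCODE annotation.
Hoxd8: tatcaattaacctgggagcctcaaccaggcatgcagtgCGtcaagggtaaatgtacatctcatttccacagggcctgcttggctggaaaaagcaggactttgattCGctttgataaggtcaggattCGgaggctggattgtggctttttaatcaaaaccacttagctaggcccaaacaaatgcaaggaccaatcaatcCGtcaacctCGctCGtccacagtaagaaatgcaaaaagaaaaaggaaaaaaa
Hoxc4: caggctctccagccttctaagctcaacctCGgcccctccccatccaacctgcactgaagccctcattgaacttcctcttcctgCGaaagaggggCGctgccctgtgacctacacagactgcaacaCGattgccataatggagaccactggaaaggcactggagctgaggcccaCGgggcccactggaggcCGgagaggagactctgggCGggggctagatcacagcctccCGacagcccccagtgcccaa
Hoxa5: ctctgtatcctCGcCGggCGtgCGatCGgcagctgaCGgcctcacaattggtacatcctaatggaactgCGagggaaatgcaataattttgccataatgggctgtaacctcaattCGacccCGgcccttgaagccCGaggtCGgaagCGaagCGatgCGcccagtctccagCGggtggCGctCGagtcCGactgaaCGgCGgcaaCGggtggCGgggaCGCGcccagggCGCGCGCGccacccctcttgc
Hoxa7: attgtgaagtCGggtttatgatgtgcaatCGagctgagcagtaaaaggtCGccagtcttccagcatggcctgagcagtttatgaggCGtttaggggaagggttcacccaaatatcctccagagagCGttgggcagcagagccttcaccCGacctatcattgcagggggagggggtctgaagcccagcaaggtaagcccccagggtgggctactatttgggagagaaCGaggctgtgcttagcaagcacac

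CpG count was 6 in the Hoxd8 window, 8 in that of Hoxc4, 28 in that of Hoxa5 and 7 in that of Hoxa7. Over the 24 Hox windows the median was 12.5, and over all 32851 RefSeq windows it was 6. GC content was 44.4% for Hoxd8, 62% for Hoxc4, 63.6% for Hoxa5 and 54.8% for Hoxa7, beside a median of 52.4% over all windows. On either strand, the Pbx-Hox composite TGATNNAT was in 4 of the 24 Hox windows and 7.68% of all windows, TATAAA in 4 and 12.4%, and TAATTA in 2 and 4.84%. None of the 3 motifs was in a window printed here, which says only that these letters are not there.

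Of the 9 DNA-binding partners in the TALE class, all were tested and none was called between High and Low. Over all tested genes 1.33% were called lower and 1.14% higher, shares at which a list of this size need hold no call. At an unadjusted p under 0.05 (edgeR) there was 1, beside 2348 of 12987 over all tested genes. Pbx2 had 50.7 and 43.1 CPM in Low 1 and Low 2, 27.7 in High 1 and 31.9 in High 2, and was not called. Pknox2 was the member that differed most between the High libraries: 0.514 and 0.329 CPM in Low 1 and Low 2, 24.7 in High 1 and 0.0407 in High 2, the last being 1 fragment. It was called higher in High 1 (log2 fold change 5.93 ± 0.49, edgeR adjusted p = 1.05e-30) and lower in High 2 (-3.11 ± 1.18, edgeR adjusted p = 0.0478). In High 2, Meis2 fell by 1.30 ± 0.39 and Meis1 by 1.17 ± 0.40 on the log2 scale (edgeR adjusted p = 0.00743 and 0.025). Of all tested genes 10.7% were called higher in High 1 and 8.15% lower in High 2. Pknox2 and Meis2 were also lower in High 2 than in High 1, as Hoxc9 and Hoxa10 were.

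**Figure D4:**
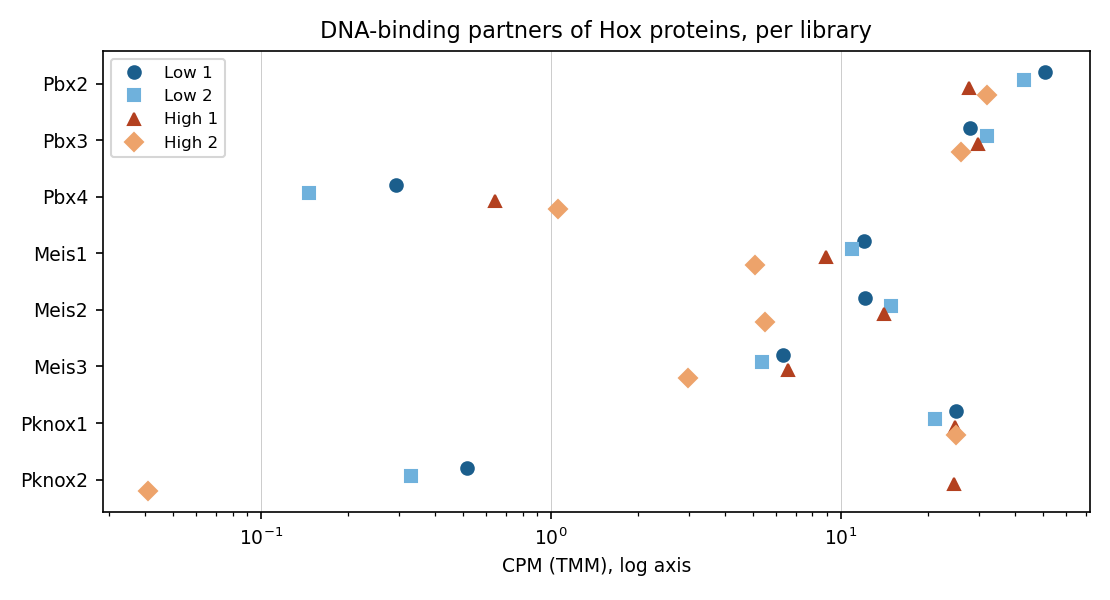
CPM on a log axis of TALE genes whose proteins bind DNA with Hox proteins, 1 marker per library. Pknox2 sits at 24.7 CPM in High 1 and at 0.514 or less in the other libraries, and Meis1 and Meis2 are lowest in High 2.

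Regulators that keep Hox genes on or off were read in the same fits. None of 15 Trithorax and MLL genes and none of 23 Polycomb genes was called between High and Low. Over all tested genes 1.33% were called lower and 1.14% higher, shares at which lists of this size need hold no call. At an unadjusted p under 0.05 (edgeR) there were 2 and 3, beside 2348 of 12987 over all tested genes. The list medians were -0.27 and -0.06 on the log2 scale, beside 0.03 over all tested genes. In High 1, Dot1l, the H3K79 methyltransferase, fell by 0.94 ± 0.30 and Mllt1, its elongation partner, by 0.82 ± 0.31, and Ezh1, a PRC2 catalytic subunit, rose by 0.82 ± 0.31 (edgeR adjusted p = 0.0135, 0.041 and 0.0487). In High 2, Jarid2, a PRC2 partner, fell by 0.95 ± 0.35 (edgeR adjusted p = 0.0405). None of 10 CTCF and cohesin genes, which fold the clusters, was called in any comparison. Over all tested genes, 8.19% were called lower and 10.7% higher in High 1, and 8.15% and 9.16% in High 2.

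Retinoic acid genes differed strongly between libraries. Of 14 tested, Rarb and Crabp1 fell between High and Low and none rose, beside 1.33% of all tested genes called lower and 1.14% higher. Rarb, a receptor gene that retinoic acid itself induces, had 15.2 and 16.2 CPM in Low 1 and Low 2, 2.45 in High 1 and 0.855 in High 2 (log2 fold change -3.26 ± 0.56, edgeR adjusted p = 0.0314). Crabp1, which codes for a cytoplasmic binding protein for retinoic acid, had 29.3 and 25.2 CPM in Low, 0.584 in High 1 and 2.48 in High 2 (-4.11 ± 0.67, edgeR adjusted p = 0.0421). For both, the High libraries lay far below the Low ones, as for Hoxc4, Hoxc5 and Hoxd8. A link between these falls was not tested.

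Against Low, 4 of the 14 were called higher and 3 lower in High 1, and 2 higher and 2 lower in High 2, beside 10.7% and 8.19%, and 9.16% and 8.15%, of all tested genes. Cyp26b1, which breaks retinoic acid down, had 50.7 and 45.6 CPM in Low 1 and Low 2, 233.1 in High 1 and 43.4 in High 2. In High 1 it rose by 2.28 ± 0.28 on the log2 scale, and so did Dhrs3 (1.75 ± 0.34), Rdh10 (1.23 ± 0.29) and Aldh1a3 (0.92 ± 0.29), enzymes of retinoid conversion, with edgeR adjusted p-values of 0.0132 or smaller. Cyp26b1, Dhrs3 and Aldh1a3 were called lower in High 2 than in High 1. Stra6, the retinol uptake receptor, went opposite ways: 161.7 and 129.7 CPM in Low, 35.5 in High 1 and 425.7 in High 2, with log2 fold changes of -2.04 ± 0.34 and 1.55 ± 0.29. Crabp2, which carries retinoic acid to the nucleus, rose in High 2 by 2.95 ± 0.28 (edgeR adjusted p = 2.39e-23). Of the Cdx genes, which activate central and posterior Hox genes in the embryo, Cdx1 had 3 to 8 fragments per library, Cdx2 had 1 in all and Cdx4 none.

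**Figure D5:**
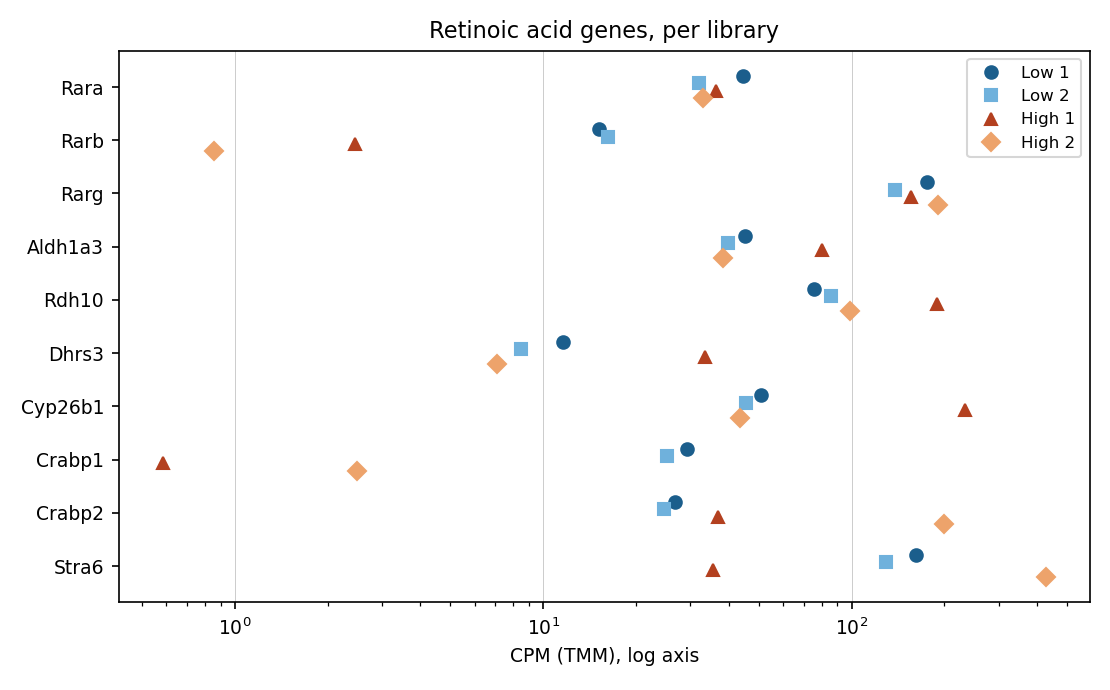
CPM on a log axis of retinoic acid genes, 1 marker per library. Rarb and Crabp1 are at 15.2 CPM or more in Low and at 2.48 or less in High, Cyp26b1 stands at 233.1 in High 1, and Stra6 runs from 35.5 in High 1 to 425.7 in High 2.

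Of 22 tested genes around the clusters, none was called between High and Low, near the background of 1.33% lower and 1.14% higher over all tested genes. Of these neighbours, 2 were at an unadjusted p under 0.05 (edgeR), beside 2348 of 12987 over all tested genes. The median log2 fold change of the 22 was -0.19. On the HoxD side, Mtx2 had 60.5, 71.0, 49.6 and 66.0 CPM in Low 1, Low 2, High 1 and High 2, and Lnp 53.5, 59.9, 65.5 and 52.2, so neither separated the groups. Near HoxC, Hnrnpa1 (-1.54 ± 0.33) and Cbx5 (-0.80 ± 0.30) were called lower in High 1, as was Ttll6 near HoxB, beside 8.19% of all tested genes called lower there. Hnrnpa1 had 421.6 and 152.4 CPM in Low 1 and Low 2, 98.5 in High 1 and 250 in High 2. Its Low libraries were thus far apart, with High 2 between them, and it was called higher in High 2 than in High 1. Ttll6 had 21, 16, 1 and 16 fragments in Low 1, Low 2, High 1 and High 2. The homeobox genes at the cluster ends, Evx1 and Evx2, had no fragment. Of the noncoding RNAs listed for the clusters, 13 were in the table and 10 of them at 0, Hotair included, and only Mira was tested (3.53, 3.26, 6.54 and 4.11 CPM; not called).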

How the data were processed

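RNA was measured in 4 libraries, 2 per group. Per the submitters' processing notes, the tools were Cuffdiff 2.2.1, TopHat2 2.0.13 and cutadapt 1.5 and the build mm10; gene annotation and strand setting: not given in the sources used here. Per the file headers, the authors' table gives every gene an estimated count of fragments, a scaled signal (not used in a test) and FPKM in each library. Of the estimated counts, 99.18% were whole (tolerance 1e-06), and all were rounded. The tests used edgeR 4.0.16 (R 4.3.3; quasi-likelihood, two-sided, robust, TMM, low-count filter with smallest count 10, Benjamini-Hochberg at 0.05); 12987 genes were tested. The biological coefficient of variation was 32.2% with 2 groups (2 residual degrees of freedom) and 17.2% with 3. Tests were checked on simulated data. CPM is TMM-scaled. Ratio intervals (exact, 95%) and the floor of 3 fragments cover counting error only. Alternatives were other scalings, no filter, DESeq2 1.42.0, limma-voom, limma 3.58.1 on log2(FPKM + 1) or + 0.1 (mean FPKM of 0.5 or more), a replicate block and leaving out each library. Members and gene lists were chosen with earlier results of these data known. Per-library values are given for Hox genes called in any comparison or with a mean CPM of 1 or more, except that some genes and sequences are not reported here.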

Additional observations from a re-analysis of the deposited data

Results flagged for a closer look

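Hoxc9 and Hoxa10 differed between the High libraries when each was set against the same Low pair. The difference itself, High 2 minus High 1 in the 3-group edgeR fit, was -3.85 on the log2 scale for Hoxc9, with High 1 above and High 2 below both Low libraries. For Hoxa10 the fitted difference was -8.48, which rests on 0 fragments in High 2 against 37 in High 1 and is no bound. In the libraries that differed this way the fibroblast and mesenchyme markers summed to 1971 CPM in High 1 and 760.2 CPM in High 2, and their part in these differences was not tested.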

How the results depend on the processing

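Between High and Low, Hoxc4, Hoxc5 and Hoxd8 were the Hox genes called under RLE scaling, no filter, DESeq2, the replicate block and log2(FPKM + 1); limma-voom called 1 Hox gene (Hoxc5), log2(FPKM + 0.1) called 1 (Hoxd8) and log2(FPKM + 1) without a filter 0 (7 at an unadjusted p under 0.05). Over all genes the main count of 321 became 814 without the filter, 1162 with DESeq2, 190 and 161 with the FPKM pseudocounts and 0 for unfiltered FPKM (2468 at an unadjusted p under 0.05). Leaving out 1 library gave 0 to 2475 genes and 0 to 6 Hox genes; without High 1 the added calls were Hoxa3, Hoxa5 and Hoxc9 (lower), and without High 2 Hoxb6, Hoxc13 and Hoxc9 (higher). A lone remaining library was taken to vary like the other group. The replicate block called 469 genes and 3 Hox genes; the numbers only name libraries (same-number correlation -0.139). A crossed replicate block, added after seeing the data, called 94 and 0 (5 Hox genes at an unadjusted p under 0.05). Reversed signs, given for genes not called between High and Low, were Hoxa10 -1.69 with limma-voom, -0.45 with the block and -0.21 crossed; and Hoxc9 -0.62 with limma-voom, -0.39 with the block, -0.34 crossed, -0.01 with log2(FPKM + 1), filtered or not, and -0.37 with log2(FPKM + 0.1). Leaving out 1 library gave -6.53 to 2.03 for Hoxa10, -0.08 to 3.81 for Hoxc6 and -2.42 to 1.43 for Hoxc9. Hoxc6 in High 2 against Low was 0.78 with limma-voom. The log2 ratio of summed HoxD was -5.13 on plain totals and -5.20 with TMM. The causes were not tested. Genes with under 10 fragments were too thinly covered to test.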
